A study of Mus musculus with 8 samples.

Results

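The genes described here were the ligands, receptors, Smads and 1 matrix target of transforming growth factor beta (TGF-beta) signaling: Tgfb1, Tgfb2, Tgfb3, Nrros (Lrrc33), Tgfbr1, Tgfbr2, Smad3, Smad7 and Tgfbi. They were picked by symbol, and all 9 were found among the 54752 genes of each count table, with Lrrc33 listed under its current symbol Nrros. RNA-seq was performed on the right cerebral cortex of wild-type adult male C57BL/6 mice (C57BL/6 J in the study's methods), with 4 mice that had received bilateral carotid artery stenosis (BCAS) by microcoils and 4 mice that had received a sham operation. The coil on the right carotid artery was the narrower, tissue was taken 3 weeks after surgery, and each library came from 1 mouse. Total counts lay between 16759364 and 21794435 per library.

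TGF-beta ligands are secreted in a latent form, wrapped in their own propeptide and tethered to matrix or to the cell surface. Integrins, thrombospondin and proteases release the active ligand, which joins a type II receptor to a type I receptor, and the type I receptor then phosphorylates Smad2 and Smad3, which enter the nucleus with Smad4. In the brain, microglia need the pathway for their resting identity, while in injured tissue it is known for matrix deposition and scarring.

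Of the 9 genes, 5 rose in BCAS mice and none fell: Tgfb1, Tgfbr1, Tgfbr2, Nrros (Lrrc33) and Tgfbi. A gene was called when edgeR's quasi-likelihood test gave a Benjamini-Hochberg adjusted p under 0.05 over all 17136 tested genes and a log2 fold change beyond 1 in either direction. Over all tested genes, 11.0% were called higher and 1.28% lower. The same 5 genes, and no others of the 9, passed the adjusted p without the fold threshold, where the shares over all tested genes were 19.2% higher and 12.8% lower. For those 5 genes all BCAS mice lay above all sham mice, a pattern found in 18.5% of tested genes, and none of the 9 showed the opposite pattern, found in 16.3%. At an unadjusted p under 0.05, 6 of the 9 were higher and 0 were lower, and of all 17136 tested genes 4254 were higher and 3666 lower. The median log2 fold change was 2.18 over the 9 genes and -0.01 over all tested genes.

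**Figure D1:**
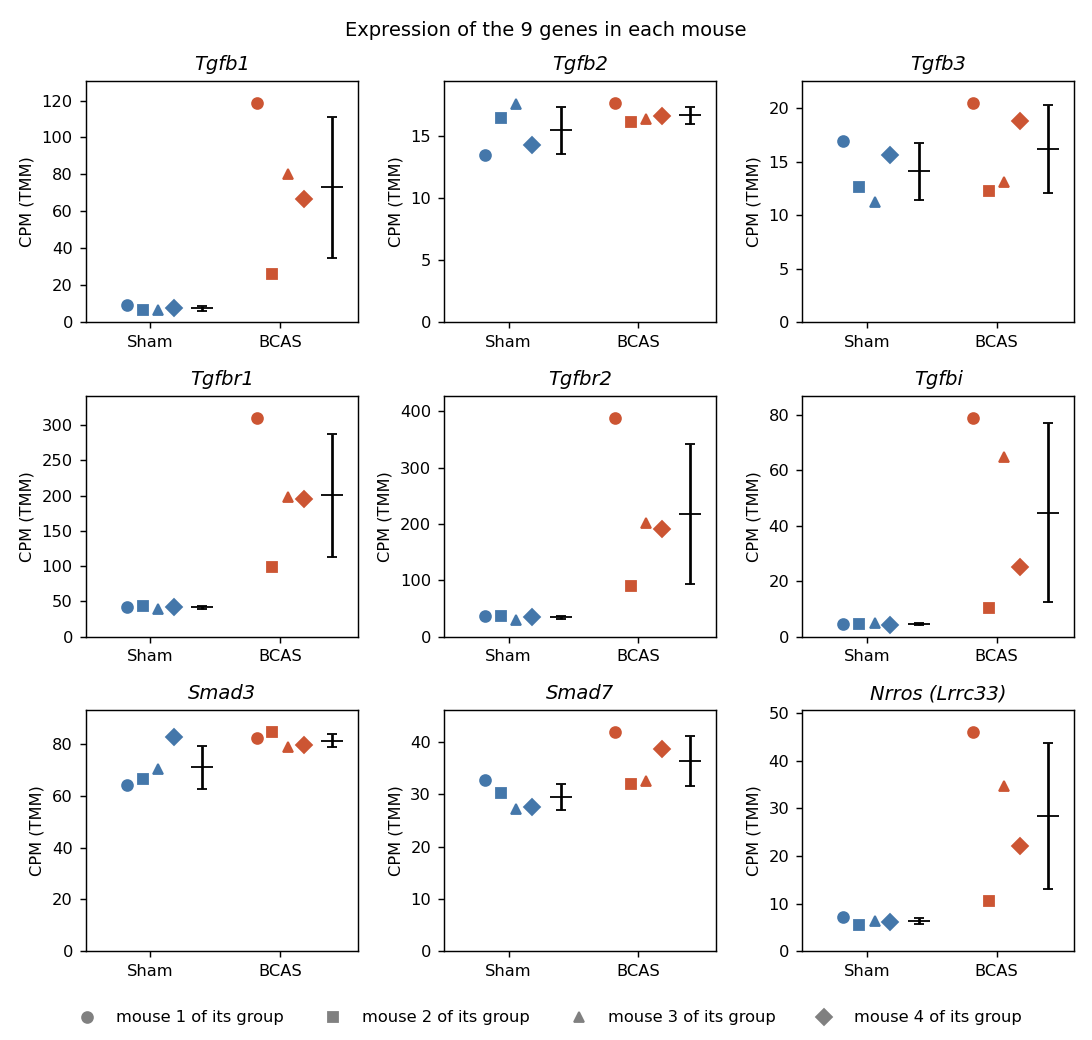
Expression of the 9 genes in each mouse, as CPM (scaled by TMM factors) on a linear axis from 0. Symbols mark the mouse within its group, and the black dash and bar give the mean and SD of 4 mice. The BCAS mice lie above every sham mouse for Tgfb1, Tgfbr1, Tgfbr2, Tgfbi and Nrros (Lrrc33), with BCAS mouse 1 highest and BCAS mouse 2 lowest, whereas the groups overlap for the other 4 genes.

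Values below are CPM (counts scaled to a fixed library total, with TMM factors as a library-size correction) and are given for mice 1 to 4 of each group in turn. Among the ligands, Tgfb1 (chr7:25687002-25705077, plus strand, mm10), the main isoform of immune cells, was at 9.21, 6.37, 6.64 and 7.78 CPM in sham mice and at 118.7, 26.2, 80.1 and 66.9 CPM in BCAS mice. The lowest BCAS mouse was well above the highest sham mouse. The means were 7.50 ± 1.30 and 73.0 ± 38.2 CPM (SD, n = 4 each), a log2 fold change of 3.28 ± 0.41 (SE; 9.72-fold; edgeR quasi-likelihood test, Benjamini-Hochberg adjusted p = 0.00203). In raw reads these were 102 to 162 counts per sham mouse and 508 to 2700 per BCAS mouse.

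Tgfb2 (chr1:186622792-186705989, minus strand), an isoform made by glia and neurons, was at 13.5, 16.4, 17.6 and 14.2 CPM in sham mice and at 17.6, 16.1, 16.3 and 16.6 CPM in BCAS mice. The groups overlapped, with a log2 difference of 0.11 ± 0.11 (SE; edgeR adjusted p = 0.465). Tgfb3 (chr12:86056745-86079041, minus strand), the third isoform, was at 16.9, 12.6, 11.2 and 15.6 CPM in sham mice and at 20.5, 12.3, 13.1 and 18.8 CPM in BCAS mice. Again the groups overlapped, with a log2 difference of 0.20 ± 0.20 (SE; edgeR adjusted p = 0.471). Of the exon bases, 2.14% of Tgfb2 and 12.4% of Tgfb3 lay under genes of the opposite strand (Gm29491, and Gm37804 with Gm48008), and reads of such pairs cannot be told apart in counts made without strand.

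Per kilobase of exon (RPKM), which allows levels of different genes to be compared, the sum of the ligands was 9.16, 7.82, 7.66 and 8.62 in sham mice, and it was 32.6, 11.6, 22.6 and 21.7 after BCAS. Tgfb1 made up 19.9, 16.1, 17.2 and 17.9% of that sum in sham mice, against 72.1, 44.8, 70.3 and 61.2% after BCAS. Tgfb3 was the largest share in every sham mouse, from 43.3 to 54.7%, and Tgfb1 in every BCAS mouse. These shares are given as a description, without a test.

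**Figure D2:**
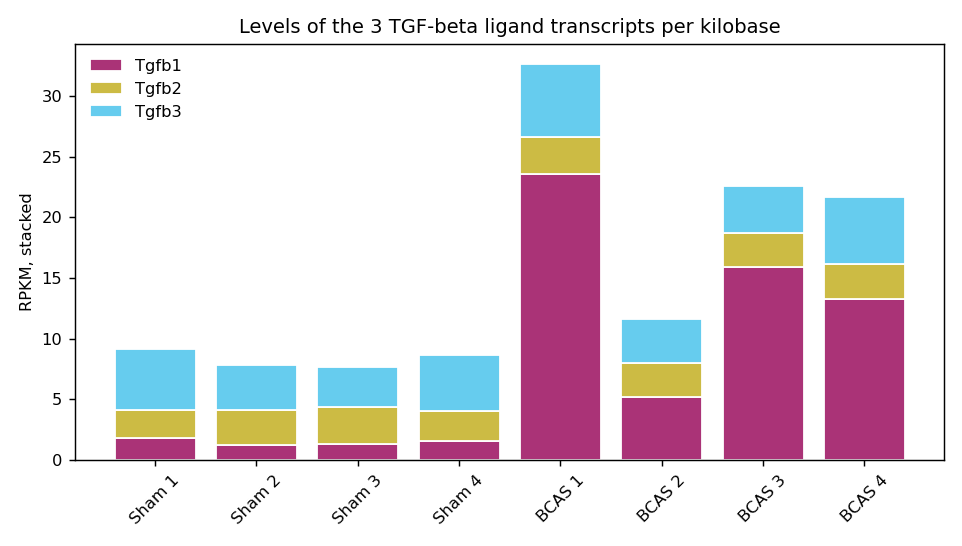
RPKM of Tgfb1, Tgfb2 and Tgfb3 stacked in each of the 4 sham and 4 BCAS libraries, on a linear axis from 0. The Tgfb1 segment grows from 16.1 to 19.9% of the stack in sham mice to 44.8 to 72.1% in BCAS mice, while neither of the other ligands passed the test.

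The 250 bases upstream of the RefSeq start (GRCm38.p6) are shown for the ligand that rose and for a ligand that did not pass the test, so that a ligand of each kind can be compared. Capitals mark matches, on either strand, of the GC box GGGCGG, the Smad box CAGAC, the CCAAT box CCAAT and the TATA box TATAAA; no matches overlapped. The Tgfb1 window is chr7:25686752-25687001 (plus strand) and the Tgfb2 window is chr1:186705990-186706239 (minus strand), each written 5′ to 3′ along its gene.
Tgfb1: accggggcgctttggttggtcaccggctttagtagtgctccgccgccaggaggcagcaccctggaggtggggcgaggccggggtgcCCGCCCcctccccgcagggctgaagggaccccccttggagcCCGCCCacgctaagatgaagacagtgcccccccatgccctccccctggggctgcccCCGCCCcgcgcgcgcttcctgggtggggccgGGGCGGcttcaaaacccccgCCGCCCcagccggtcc
Tgfb2: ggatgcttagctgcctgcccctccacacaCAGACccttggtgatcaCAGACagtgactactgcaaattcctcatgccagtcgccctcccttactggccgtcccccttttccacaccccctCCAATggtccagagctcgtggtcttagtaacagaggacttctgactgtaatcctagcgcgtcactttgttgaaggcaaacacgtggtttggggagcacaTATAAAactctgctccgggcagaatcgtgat
The Tgfb1 window was 75.2% G or C with 5 GC boxes and none of the other motifs searched. The Tgfb2 window was 53.6% G or C, without a GC box, and held 2 Smad boxes, 1 CCAAT box and 1 TATA box. Among 32851 windows of the same length upstream of RefSeq genes, with a median of 52.4% G or C, 32.7% held a GC box, 42.2% a Smad box, 33.8% a CCAAT box and 12.4% a TATA box. A match is a string of letters and not a shown binding site.

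Nrros (Lrrc33) (chr16:32142785-32165594, minus strand) encodes the membrane protein that holds latent TGF-beta1 on microglia and macrophages. Nrros (Lrrc33) was at 7.10, 5.55, 6.29 and 6.16 CPM in sham mice and at 46.0, 10.7, 34.7 and 22.1 CPM in BCAS mice, without overlap. The means were 6.28 ± 0.638 and 28.4 ± 15.3 CPM (SD, n = 4 each), a log2 fold change of 2.18 ± 0.39 (SE; 4.52-fold; edgeR adjusted p = 0.00598).

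Both receptors rose. Tgfbr1 (chr4:47353222-47414931, plus strand), the type I receptor kinase, was at 42.1, 44.0, 38.8 and 42.5 CPM in sham mice and at 310.6, 98.1, 197.5 and 194.9 CPM in BCAS mice. Its log2 fold change was 2.26 ± 0.29 (SE; 4.79-fold; edgeR adjusted p = 0.00214). Tgfbr2 (chr9:116084293-116175360, minus strand), the type II receptor that binds the ligand first, was at 37.5, 36.0, 30.3 and 34.2 CPM in sham mice and at 388.7, 90.4, 200.9 and 190.6 CPM in BCAS mice. Its log2 fold change was 2.66 ± 0.38 (SE; 6.32-fold; edgeR adjusted p = 0.0028). Neither receptor's groups overlapped. The ratio of Tgfbr1 to Tgfbr2 per kilobase was 1.41, 1.53, 1.61 and 1.56 in sham mice, against 1.00, 1.36, 1.23 and 1.28 after BCAS. The BCAS values lay below the sham values without overlap; this ratio was not tested.

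The upstream windows of the receptors are shown because both receptors rose. Capitals mark the same motifs as above and the PU.1 site GAGGAAG, a core sequence bound by a factor of myeloid cells. The Tgfbr1 window is chr4:47352972-47353221 (plus strand). The Tgfbr2 window is chr9:116175364-116175613 (minus strand), where the RefSeq start lies 3 bases from the start in the count tables' annotation.
Tgfbr1: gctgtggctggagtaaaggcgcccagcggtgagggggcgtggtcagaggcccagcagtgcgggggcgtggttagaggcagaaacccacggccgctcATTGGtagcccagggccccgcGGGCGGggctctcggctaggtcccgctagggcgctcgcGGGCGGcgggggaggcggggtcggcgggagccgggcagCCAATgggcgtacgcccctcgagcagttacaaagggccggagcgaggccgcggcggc
Tgfbr2: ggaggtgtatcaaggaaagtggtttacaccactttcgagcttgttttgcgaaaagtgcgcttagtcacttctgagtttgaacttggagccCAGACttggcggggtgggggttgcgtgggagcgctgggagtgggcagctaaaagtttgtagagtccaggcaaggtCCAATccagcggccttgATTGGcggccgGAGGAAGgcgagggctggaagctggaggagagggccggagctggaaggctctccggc
Both windows held 2 CCAAT boxes. The Tgfbr1 window (74.8% G or C) also held 2 GC boxes, and the Tgfbr2 window (58.4% G or C) held 1 Smad box and 1 PU.1 site, a string found in 10.6% of the 32851 windows. The AP-1 site TGANTCA, found in 6.75% of windows, was in none of the 7 windows searched, which also covered Tgfbi, Smad3 and Nrros (Lrrc33).

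The Smads did not pass the test. Smad3 (chr9:63646767-63757994, minus strand), a receptor-activated Smad, was at 64.1, 66.4, 70.2 and 82.7 CPM in sham mice and at 82.2, 84.5, 78.8 and 79.5 CPM in BCAS mice, a log2 difference of 0.20 ± 0.09 (SE; edgeR adjusted p = 0.12). The groups overlapped through sham mouse 4. Smad7, the inhibitory Smad that targets the type I receptor for degradation and is itself induced by the pathway, was at 32.6, 30.2, 27.2 and 27.6 CPM in sham mice and at 41.9, 32.0, 32.6 and 38.6 CPM in BCAS mice, a log2 difference of 0.30 ± 0.11 (SE; edgeR adjusted p = 0.0679). The Smad7 groups overlapped through sham mouse 1. Without BCAS mouse 2 the log2 difference of Smad7 was 0.37, with an edgeR adjusted p of 0.0223, below the fold threshold in both cases. The ratio of Smad7 to Smad3 per kilobase ranged from 0.409 to 0.624 in sham mice and from 0.464 to 0.624 in BCAS mice.

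Tgfbi (chr13:56609523-56639562, plus strand) encodes a secreted matrix protein that was named for its induction by TGF-beta. Tgfbi was at 4.55, 4.74, 4.81 and 4.35 CPM in sham mice and at 79.1, 10.3, 64.7 and 25.2 CPM in BCAS mice, without overlap. The means were 4.61 ± 0.208 and 44.8 ± 32.4 CPM (SD, n = 4 each), a log2 fold change of 3.28 ± 0.57 (SE; 9.72-fold; edgeR adjusted p = 0.0054). The spread among BCAS mice was the widest of the 9 genes, with a coefficient of variation of 72.3%.

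In every one of the 5 genes that rose, BCAS mouse 1 was the highest and BCAS mouse 2 the lowest of the BCAS mice. Their coefficients of variation among BCAS mice lay between 43.4 and 72.3%, against 3.23 to 25.3% for the other 4 genes. Leaving out each mouse in turn moved the log2 fold change of Tgfb1 between 2.96 and 3.57, of Tgfbr1 between 1.98 and 2.50, of Tgfbr2 between 2.23 and 2.93, of Tgfbi between 2.87 and 3.62 and of Nrros (Lrrc33) between 1.85 and 2.46. The lowest value came without BCAS mouse 1 and the highest without BCAS mouse 2, and all 5 genes were called in each of these fits.

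The order of the levels per kilobase differed between the groups. In sham mice it ran from Smad3 (mean 12.8 RPKM) through Smad7 (6.50), Tgfbr1 (6.40), Tgfbr2 (4.21), Tgfb3 (4.17), Tgfb2 (2.66), Nrros (Lrrc33) (1.502) and Tgfb1 (1.49) to Tgfbi (1.22). The ranges of the sham mice overlapped between Smad7 and Tgfbr1, between Tgfbr2 and Tgfb3, between Nrros (Lrrc33) and Tgfb1, and between Tgfb1 and Tgfbi. In BCAS mice the receptors came first, with Tgfbr1 at a mean of 30.7 RPKM and Tgfbr2 at 26.6, followed by Smad3 (14.7), Tgfb1 (14.5), Tgfbi (11.9), Smad7 (8.02), Nrros (Lrrc33) (6.79), Tgfb3 (4.78) and Tgfb2 (2.87). There the ranges of all neighbours overlapped except those of Tgfb3 and Tgfb2.

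Expression in whole cortex mixes cell types, and in such bulk samples fewer cells of a type and less RNA per cell cannot be told apart. Cortical excitatory neuron markers were present in all libraries, with 8 of 8 genes tested and a summed level of 2027 to 2302 CPM in sham mice and 647.3 to 1748 CPM in BCAS mice; 2 of 8 were called lower, and 5 of 8 were lower by the edgeR adjusted p alone (1.28% and 12.8% of all tested genes). The 10 microglia and macrophage markers (such as Aif1, Csf1r and Cd68) were all called higher, beside 11.0% of all tested genes. Their sum was 298.6 to 358.4 CPM in sham mice and 5969, 1499, 3088 and 3060 CPM after BCAS. The two-sided exact permutation p for this sum was 0.0286 (the smallest that 4 against 4 mice allow). Of these mice, BCAS mouse 1 was again the highest and BCAS mouse 2 the lowest. Fibroblast markers summed to 146.5 to 182.4 CPM in sham mice and to 1106, 268.5, 1069 and 526.3 CPM in BCAS mice. Of these 8 markers, 7 were called higher, beside 11.0% of all tested genes. Blood-borne leukocyte markers summed to 1.15 to 1.87 CPM in sham mice and to 109.4, 4.69, 68.0 and 18.03 CPM in BCAS mice, with Ly6g at 0 in all libraries. Only 3 of the 10 passed the filter on low counts, and since sham levels were this low they could pass through the BCAS mice alone, so that their being called higher carries little weight. The part of these cell types in the rise of the 5 genes was not tested.

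Relative to the summed microglia and macrophage markers, the genes fell into different patterns, which are given without a test. Per 100 CPM of that sum, Tgfb1 was at 2.76, 1.78, 2.22 and 2.50 CPM in sham mice and at 1.99, 1.75, 2.59 and 2.19 CPM after BCAS, and the ranges overlapped. Tgfbr1 was at 12.3 to 13.7 CPM in sham mice and 5.20 to 6.55 CPM in BCAS mice on this scale, and Tgfbr2 at 10.1 to 11.2 and 6.03 to 6.51 CPM. Nrros (Lrrc33) was at 1.55 to 2.13 CPM in sham mice and 0.711 to 1.12 CPM in BCAS mice. Thus both receptors and Nrros (Lrrc33) were lower per marker CPM in all BCAS mice than in any sham mouse. This holds for these 10 markers, whose mean sum rose from 325.5 CPM in sham mice to 3404 CPM in BCAS mice. The mean sum of the 18 microglial genes given below rose by less, from 929.4 to 4932 CPM. Tgfbi was at 1.32 to 1.61 CPM in sham mice and at 1.33, 0.684, 2.10 and 0.824 CPM in BCAS mice, with values on both sides of the sham range.

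**Figure D3:**
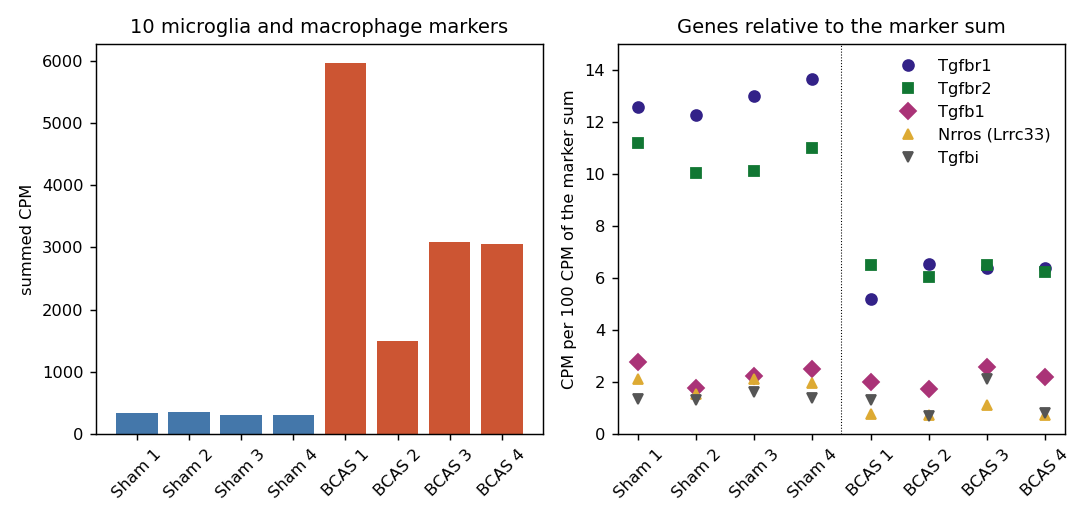
Left, summed CPM of 10 microglia and macrophage markers in each library, as bars from 0. Right, CPM of 5 genes per 100 CPM of that sum in each library, where Tgfbr1 lies between 12.3 and 13.7 in sham mice and between 5.20 and 6.55 in BCAS mice, while Tgfb1 overlaps between the groups.

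Among the remaining marker lists, astrocyte markers summed to 5416 to 6279 CPM in sham mice and 7097 to 10170 CPM in BCAS mice (exact permutation p = 0.0286), with 2 of 8 called higher, and mural cell markers to 326.7 to 388.8 and 414.1 to 637.0 CPM (exact permutation p = 0.0286), with 1 of 8 called higher. Endothelial (exact permutation p = 0.143), oligodendrocyte (0.114), striatum (0.4) and choroid plexus (0.914) markers had no called gene. Neuron markers summed to 8463 to 9889 CPM in sham mice and 3274 to 7176 CPM in BCAS mice (exact permutation p = 0.0286), with 1 of 8 called lower and 6 of 8 lower by the edgeR adjusted p alone, and erythrocyte markers to 59.3 to 80.8 and 94.5 to 123.7 CPM (exact permutation p = 0.0286), with 0 of 5 called. The shares over all tested genes were 11.0% called higher and 1.28% lower, and 12.8% lower by adjusted p alone.

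Many genes of a list for the latent TGF-beta complex and its activation rose. Of the 21 genes, 20 were tested (Itgb6 was too low), 12 were called higher and none lower (over all tested genes, 11.0% and 1.28%). Their median log2 fold change was 1.30 against -0.01 over all tested genes. At an unadjusted p under 0.05, 0 were lower. With at least 10 counts required in every library, 11 were called higher. The list shares 1 gene, Dcn, with the fibroblast markers given above. The largest increases were in Ltbp2, a microfibril-associated relative of the latent TGF-beta binding proteins (log2 fold change 3.58 ± 1.01 SE, edgeR adjusted p = 0.0284), Thbs1, thrombospondin 1, an activator of latent TGF-beta (2.94 ± 0.57, edgeR adjusted p = 0.00794), and Itgb5, the beta subunit of an activating integrin (2.88 ± 0.35, edgeR adjusted p = 0.00195). Thbs1 was at 2.44 to 7.55 CPM in sham mice and at 41.7, 7.42, 52.2 and 42.1 CPM in BCAS mice, where BCAS mouse 2 lay just under the highest sham mouse. Itgb5 was at 53.3 to 55.7 CPM in sham mice and at 694.2, 182.9, 367.3 and 364.4 CPM in BCAS mice.

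Ltbp2 was uneven, at 21.6, 0.515, 20.1 and 2.62 CPM in BCAS mice against 0.458 to 1.33 CPM in sham mice, so that BCAS mouse 2 lay within the sham range. Its edgeR adjusted p rose to between 0.0666 and 0.0760 without any 1 of the sham mice or without BCAS mouse 3 (log2 fold change 3.14 to 3.78). Lrrc32, the counterpart of Nrros (Lrrc33) on regulatory T cells, platelets and endothelium, was at 5.32 to 7.66 CPM in sham mice and at 18.5, 8.34, 14.6 and 13.8 CPM in BCAS mice (log2 fold change 1.08 ± 0.24 SE, edgeR adjusted p = 0.0123). Without BCAS mouse 1 it was 0.92, and without sham mouse 3 it was 0.99, both under the fold threshold. Ltbp1, a latent TGF-beta binding protein (0.34 ± 0.20, edgeR adjusted p = 0.197), Itgav, the shared alpha subunit of the activating integrins (-0.03 ± 0.11, edgeR adjusted p = 0.841), and Itgb8, the integrin subunit that releases TGF-beta from Lrrc33 (0.32 ± 0.12, edgeR adjusted p = 0.0671), did not pass. Without BCAS mouse 2, Ltbp1 was at 0.51 (edgeR adjusted p = 0.018) and Itgb8 at 0.40 (edgeR adjusted p = 0.0165).

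Of 13 other receptors and co-receptors of the superfamily, all tested, 1 was called higher and 0 lower (11.0% and 1.28% of all tested genes), with a median log2 fold change of 0.34. By adjusted p alone 6 were higher and 2 lower (19.2% and 12.8% of all tested genes). The called gene was Cd109, a co-receptor that dampens TGF-beta signaling (log2 fold change 3.48 ± 0.41 SE, edgeR adjusted p = 0.00195), at 1.03 to 2.40 CPM in sham mice and 30.6, 9.17, 16.8 and 14.6 CPM in BCAS mice. Tgfbr3, the co-receptor betaglycan that presents Tgfb2, passed the adjusted p alone, at 14.5 to 20.2 CPM in sham mice and 24.7 to 33.2 CPM in BCAS mice (0.87 ± 0.14, edgeR adjusted p = 0.00398). The endothelial co-receptor Eng (0.71 ± 0.19, edgeR adjusted p = 0.0258) and the endothelial type I receptor Acvrl1 (0.66 ± 0.22, edgeR adjusted p = 0.0481) did so too. For Eng it was 0.0569 to 0.0693 without any 1 of the sham mice or BCAS mouse 3 (log2 fold change 0.63 to 0.74), and for Acvrl1 it was 0.0832 to 0.110 without any 1 mouse other than BCAS mouse 2 (0.46 to 0.68). The 2 genes that were lower, named after their values were seen, were the activin-type receptors Acvr1c (-0.96 ± 0.19, edgeR adjusted p = 0.00911) and Acvr1b (-0.55 ± 0.15, edgeR adjusted p = 0.0259).

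Of 23 other Smads and regulators, all tested, 1 was called higher and 0 lower, beside the 11.0% and 1.28% over all tested genes, with a median log2 fold change of 0.15. By adjusted p alone 7 were higher and 2 lower, beside 19.2% and 12.8%. The called gene was Tgif1, a repressor that binds Smad complexes (log2 fold change 3.12 ± 0.40 SE, edgeR adjusted p = 0.00215), at 1.62 to 2.44 CPM in sham mice and 29.98, 7.52, 16.96 and 13.7 CPM in BCAS mice. Smad2, the other receptor-activated Smad of TGF-beta (0.14 ± 0.10, edgeR adjusted p = 0.296), and the common partner Smad4 (0.18 ± 0.07, edgeR adjusted p = 0.0898) did not pass. The Smad co-repressors Ski (0.35 ± 0.13, edgeR adjusted p = 0.0684) and Skil (0.30 ± 0.12, edgeR adjusted p = 0.0868) did not pass either, but did without BCAS mouse 2 (Ski 0.45, edgeR adjusted p = 0.0103; Skil 0.39, edgeR adjusted p = 0.0166).

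Of the ubiquitin ligases recruited by Smad7, Smurf1 did not pass (-0.01 ± 0.10, edgeR adjusted p = 0.923), and Smurf2 passed the adjusted p alone, at 42.2 to 48.2 CPM in sham mice and 52.8 to 63.0 CPM in BCAS mice (0.33 ± 0.08, edgeR adjusted p = 0.0188; 0.0569 to 0.0610 without sham mouse 1, 2 or 4, at a log2 difference of 0.30 to 0.32). The 2 genes that were lower, named after their values were seen, were Zfyve9, which brings Smads to the receptor (-0.62 ± 0.15, edgeR adjusted p = 0.0186), and Ppm1a, a Smad phosphatase (-0.51 ± 0.14, edgeR adjusted p = 0.0264).

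**Figure D4:**
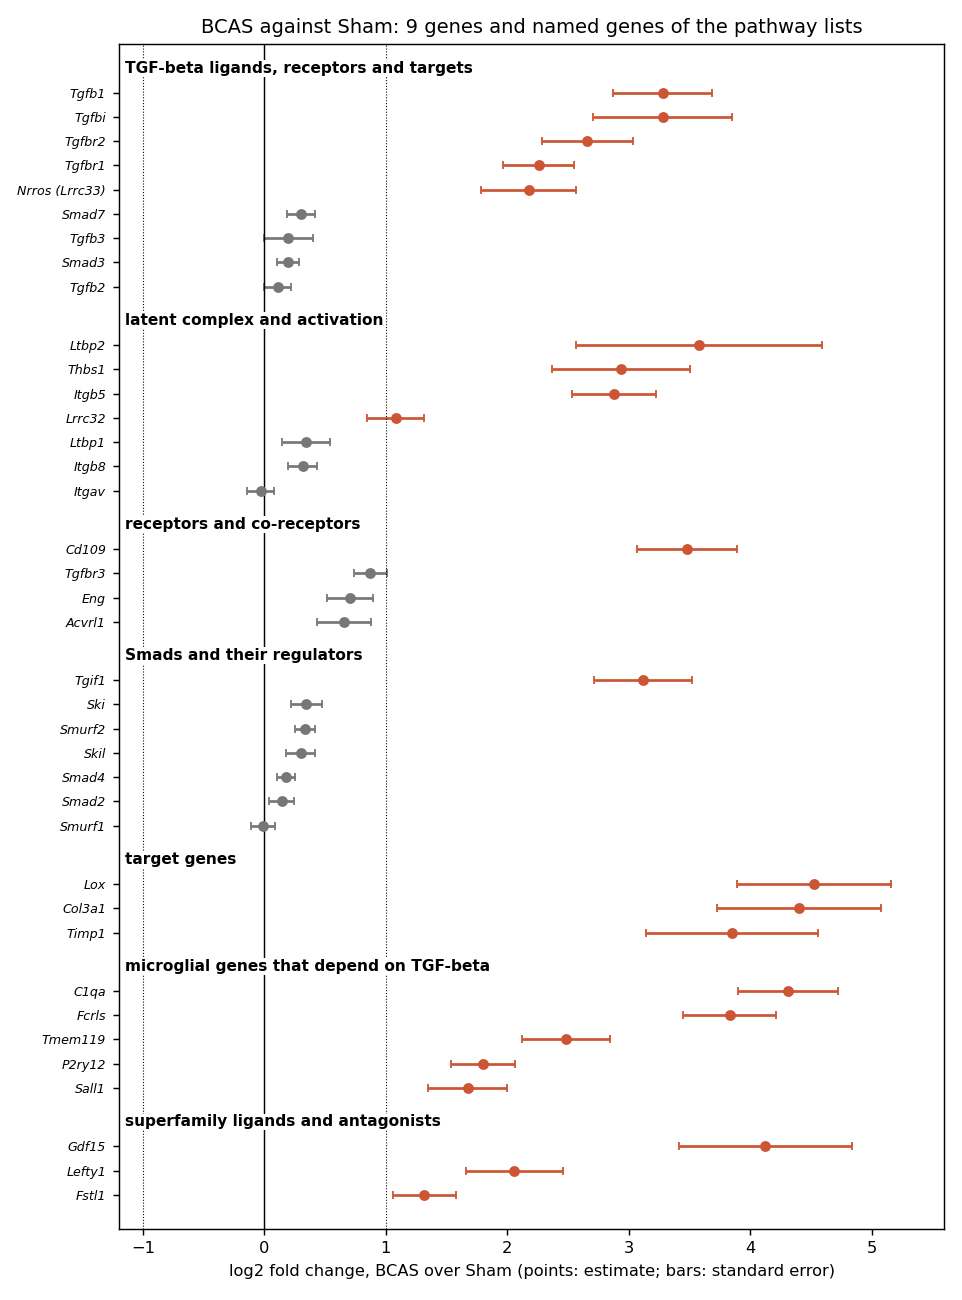
Log2 fold changes (BCAS over sham) with standard errors for the 9 genes and for genes named from each pathway list; orange points were called higher by edgeR, grey points were not called, and dotted lines mark -1 and 1. In the 9 genes the 5 called points lie between 2.18 and 3.28 and the other 4 between 0.11 and 0.30.

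Genes known as transcriptional targets of TGF-beta rose in part. Of 25, 24 were tested, 13 were called higher and 0 lower (over all tested genes, 11.0% and 1.28%). Their median log2 fold change was 1.21, and 1 was lower at an unadjusted p under 0.05. Tagln did not pass the filter on low counts, and 67.9% of its exon bases lay under genes of the opposite strand. Genes low in sham mice could pass this filter through the BCAS mice alone. With at least 10 counts required in every library, 10 genes were called higher. The largest increases were in Lox, Col3a1 and Timp1. Lox, which cross-links collagen, had a log2 fold change of 4.53 ± 0.64 (SE; edgeR adjusted p = 0.0028). For Col3a1, a fibrillar collagen, it was 4.40 ± 0.67 (edgeR adjusted p = 0.00347). For Timp1, a metalloproteinase inhibitor, it was 3.85 ± 0.71 (edgeR adjusted p = 0.00653). The size of the Timp1 change is uncertain, since sham mice 1 to 4 gave only 10, 2, 3 and 11 reads. The BCAS mice gave 28 to 246 reads and could carry Timp1 through the filter alone. Requiring at least 10 counts in every library left Timp1 out. Other targets did not pass: Ccn2, a matricellular growth factor and a standard target, was at 24.1 to 35.9 CPM in sham mice and 28.8 to 45.9 CPM in BCAS mice (0.27 ± 0.19, edgeR adjusted p = 0.304; named after its values were seen). The list shares 3 genes, Col1a1, Col1a2 and Col3a1, with the fibroblast markers given above.

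Microglial genes whose expression is known to depend on TGF-beta were higher almost throughout. Of 18 tested, 16 were called higher and 0 lower (over all tested genes, 11.0% and 1.28%), with a median log2 fold change of 2.41, and 0 were lower at an unadjusted p under 0.05. The largest increases were in C1qa, a complement component (log2 fold change 4.31 ± 0.41 SE, edgeR adjusted p = 0.00147) and Fcrls, a microglial surface receptor (3.83 ± 0.38, edgeR adjusted p = 0.00147). Markers of the resting state rose by less: Tmem119 by 2.48 ± 0.36 (edgeR adjusted p = 0.00302), the purinergic receptor P2ry12 by 1.80 ± 0.27 (edgeR adjusted p = 0.00305) and the transcription factor Sall1 by 1.67 ± 0.33 (edgeR adjusted p = 0.00838), all on the log2 scale. P2ry12 was at 38.7 to 52.3 CPM in sham mice and 250.9, 96.9, 127.5 and 159.3 CPM in BCAS mice. Of these 18 genes, 4 (C1qa and Csf1r among them) are also microglia and macrophage markers counted above.

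Among other ligands and antagonists of the superfamily, 20 of 22 were tested (Mstn was too low, and Gdf1 could not be measured, since all its exon bases lie under other genes of the annotation), 6 were called higher and 0 lower (over all tested genes, 11.0% and 1.28%), with a median log2 fold change of 0.39. By adjusted p alone 8 were higher and 1 lower (over all tested genes, 19.2% and 12.8%). The largest increases were in the stress cytokine Gdf15 (log2 fold change 4.13 ± 0.71 SE, edgeR adjusted p = 0.00527), the Nodal antagonist Lefty1 (2.06 ± 0.40, edgeR adjusted p = 0.00807) and the follistatin-like Fstl1 (1.32 ± 0.26, edgeR adjusted p = 0.00846). Gdf15 and Lefty1 were low, at 0.114 to 0.187 and 0.341 to 0.686 CPM in sham mice and at 0.773 to 5.67 and 1.13 to 3.30 CPM in BCAS mice, where 3 counts correspond to 0.138 to 0.179 CPM. Both could pass the filter on low counts through the BCAS mice alone. With at least 10 counts required in every library, 4 genes of the list were called higher. Without BCAS mouse 1 the log2 fold change of Gdf15 was 3.46, and on the log2(CPM + 1) scale with limma it was 1.497 for Gdf15 and 1.04 for Lefty1, both still called. Nog, the bone morphogenetic protein antagonist noggin, was the gene that was lower (-0.75 ± 0.18, edgeR adjusted p = 0.0163; named after its values were seen).

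The genes whose profiles over the 8 libraries lay nearest to each of the 9 were found by the root-mean-square difference of log2 CPM after centring on the sham mean, among 15873 genes. Nearest to Tgfb1 were Tnfaip8l2 (0.123) and P2ry6 (0.159), and nearest to Nrros (Lrrc33) were Chek2 (0.123) and Sdc1 (0.130). Csf1 (0.0640) was nearest to Tgfbr1, and nearest to Tgfbr2 were Inpp5d (0.0901) and Msn (0.0927). Nearest to Tgfbi were Col1a1 (0.119) and Ptafr (0.137). The neighbours of the 4 genes that did not pass were Qpctl (0.0600) and Rfwd3 (0.0603) for Tgfb2, Lims2 (0.0808) and Nubp1 (0.105) for Tgfb3, Yeats2 (0.0544) and Mis12 (0.0576) for Smad3, and Ddrgk1 (0.0484) and St3gal4 (0.0516) for Smad7. All distances are in log2 units and describe these 8 libraries.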

How the data were processed

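RNA-seq was performed on the right cerebral cortex of 4 sham and 4 BCAS mice, 1 mouse per library. The authors deposited raw counts per gene, made with Trim Galore, HISAT2 (mm10), SAMtools 1.9 and featureCounts; per the file headers this was version 2.0.1 with the GENCODE M20 annotation and no strand option, per the labels version 1.6.3. Of 54752 gene IDs, 54723 were given a symbol. The 9 genes and the lists were chosen with earlier results of these data known. Genes were filtered with filterByExpr (minimum count 10, minimum total 15), which left 17136, and fitted with edgeR 4.0.16 (R 4.3.3), TMM factors and its quasi-likelihood test without covariates, with Benjamini-Hochberg adjustment; DESeq2 1.42.0 and limma 3.58.1 served as alternatives. CPM and RPKM (over exon length) were computed here from the counts. A count of 0 allows up to 3 counts, at most 0.179 CPM; this covers counting error only. On simulated counts the edgeR fit recovered 185 of 199 genes changed by a log2 of 2, with 1 false call. Besides the 9 genes, the rule for naming genes took the 3 called genes of largest increase and up to 2 of largest decrease per list at a mean of at least 1 CPM, a set of pathway genes whatever their values, and the 2 nearest profiles of each of the 9 genes. Upstream windows came from RefSeq (GRCm38.p6), with 7 of the 9 genes searched. A few genes that this rule took are not reported here.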

Additional observations from a re-analysis of the deposited data

Results flagged for a closer look

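None of the 9 genes had a mouse that stood apart from the other 3 of its group by Dixon's gap ratio (the gap to the nearest mouse over the range of the group). Of 42 groups of 4 values looked at, 5 were past the 95% critical value, all of them marker sums, and chance gives about 5% of groups (1 in 20). Choroid plexus markers were high in sham mouse 3 (778.8 CPM against 18.2 to 51.4 in the other sham mice, ratio 0.956) and in BCAS mouse 4 (75.2 CPM, ratio 0.916). Oligodendrocyte markers were low in sham mouse 3 (3975 CPM, ratio 0.898), and erythrocyte markers were low in sham mouse 4 (59.3 CPM, ratio 0.857). Striatum markers were high in BCAS mouse 4 (624.8 CPM, ratio 0.949). The 5 genes that rose were called without each of these mice in turn.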

How the results depend on the processing

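Tgfb1, Tgfbr1, Tgfbr2, Tgfbi and Nrros (Lrrc33) were called higher, and all 9 genes kept their direction, under each of 17 alternatives (other normalizations, filters and tests, the replicate block, and each mouse left out). Smad7 passed the adjusted p with library size alone (0.40; this scaling moved the median of all genes to 0.08) and without BCAS mouse 2 (0.37). With library size alone Smad4 (adjusted p = 0.0358), Ski (0.0377), Skil (0.0478) and Itgb8 (0.0387) passed too, and Ski also with the DESeq2 test (0.041). Same-numbered mice deviated together with correlations of -0.103 to 0.00126, so no shared deviation by number was seen. Such correlations cannot exclude that the numbers mark shared handling. With a replicate block 5 of the 9 genes were called, and 1624 genes were called higher (1877 without the block) and 185 lower (220). Without the fold threshold 3291 genes were higher and 2199 lower, the receptor list had 6 higher and 2 lower, the Smad list 7 higher and 2 lower, and the superfamily ligand list 1 lower. Limma on log2(CPM + 1) called 145 genes lower. Leaving out 1 mouse gave 86 (without sham mouse 1) to 559 (without BCAS mouse 2) genes lower, 0 to 1 lower in the receptor list and in the superfamily ligand list, and 1 to 2 higher in the Smad list. Among genes that did not pass, Itgav changed sign with library size alone (0.0608) and without 1 mouse (-0.12 to 0.0223), as did Smurf1 with library size alone (0.0784), with at least 10 counts in every library (0.0041) and without 1 mouse (-0.0899 to 0.0303). Ltbp2 was not called with limma-voom (2.53), limma on log2(CPM + 1) (1.91) or the replicate block (2.75). Lrrc32 fell under the fold threshold with limma on log2(CPM + 1) (0.94). Acvrl1 missed the adjusted p with limma-voom (0.0807), limma on log2(CPM + 1) (0.0635) and the replicate block (0.0812), as Smurf2 did with the block (0.0549). The cause of these changes was not tested. Limma on log2(CPM + 1), whose added 1 understates the change of low genes, gave smaller log2 fold changes for called genes: Gdf15 1.497, Lefty1 1.04, Timp1 2.06, Lox 3.35, Col3a1 3.74, Cd109 2.76, Tgif1 2.47 and Tgfbi 2.65, all still called. Depth limits the low genes: sham values of Gdf15 and Timp1 rest on few counts.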
